A study of Mus musculus with 23 samples.

Results

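The spermatogonial stem cell genes Gfra1, Id4, Pdx1, Zbtb16, Ret, Etv5, Bcl6b, Lhx1, Nanos2 and Eomes were followed through the first wave of mouse spermatogenesis in vivo and in cultured testis explants. They were picked by name, with earlier results of these data known, and are 10 of the 27466 genes in the count table. All 10 have a row there, and 9 of them passed the filter on low counts, as did 19255 genes in all. Pdx1 did not pass. Levels are CPM, the read count of a gene over the total count of its library, scaled to a common total.

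The tissue came from CD-1 mice. In vivo testes were taken 6.5 or 10.5 days postpartum (dpp), or later at 22.5 dpp or 36.5 dpp, and explants cut from 6.5 dpp testes were kept in organotypic culture for 4, 16 or 30 days (D4, D16, D30), which brought them to the age of the 3 later groups of testes in turn. All cultures received retinol, the dead centre of each explant was cut away before RNA extraction and explants were pooled for each replicate, as the study describes. Part of the 6.5 dpp tissue was frozen by controlled slow freezing (CSF), and some of it was then cultured to D30. Frozen and fresh tissue of one time formed one group, which gave 4 libraries of 6.5 dpp (1 fresh, 3 CSF) and 4 of D30 (3 fresh, 1 CSF). The 10.5 dpp, 22.5 dpp and D4 groups had 3 fresh libraries each, and the 36.5 dpp and D16 groups 2 each.

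The 21 libraries of the fit held 28351546 to 69029328 counts. Fresh replicates 2 and 3 of 6.5 dpp held identical values throughout, so they entered as 1 sample. The library labelled 6.5 dpp fresh replicate 1 was left out by the rule that defined this set of genes, set with earlier results in view, and its values are given beside those of the others. It held 19.96 CPM of Gfra1, 35.2 of Ret, 44.1 of Zbtb16, 27.7 of Bcl6b, 1.28 of Lhx1, 0.290 of Nanos2 and 1.07 of Eomes. The spermatocyte markers named below summed to 736 CPM in it, against 128 to 237 in the 6.5 dpp libraries kept and 501 to 942 at D16. For the spermatid markers this was 53.5, against 3.37 to 7.94 and 7.56 to 56.0. Its Sertoli cell markers, at 4868, lay within the 3290 to 4942 of the 6.5 dpp libraries kept. Among the libraries kept, 6.5 dpp CSF replicate 3, the shallowest, stood apart: it was the lowest of its group for 9 of the 10 genes and the highest for Nanos2. The D30 CSF library lay within the range of the fresh D30 libraries for 8 of the 10 genes, below it for Lhx1 and above it for Nanos2. The study calls the samples of a group biological replicates, and p-values measure the spread between these samples. The whole testis was sequenced, so fewer cells of a type and less RNA per cell cannot be told apart.

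Spermatogonial stem cells are the rare undifferentiated germ cells on the basement membrane of the seminiferous tubule that renew themselves and feed spermatogenesis. Sertoli and peritubular cells secrete GDNF, which binds the co-receptor GFRA1 and signals through the tyrosine kinase RET, and fibroblast growth factors act beside it. Etv5, Bcl6b and Lhx1 are transcription factor genes that respond to GDNF in cultured stem cells. Id4 codes for an inhibitor of basic helix-loop-helix factors, Zbtb16 (PLZF) for a zinc finger repressor, Nanos2 for an RNA-binding protein that holds cells undifferentiated, and Eomes and Pdx1 for transcription factors reported in stem cell subsets. Id4 is also known from spermatocytes, and Etv5 from Sertoli cells.

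The stretches before the starts of Id4, Lhx1, Etv5 and Nanos2 are shown because these genes took different courses: Id4 rose between 10.5 and 22.5 dpp, Lhx1 fell and came back, Etv5 was higher in culture than in vivo and Nanos2 fell nearly out of detection. They are the bases of the RefSeq promoter windows (GRCm38.p6) that lie outside annotated exons of the gene, 5′ to 3′ on the gene's strand, and capitals mark matches of GGGCGG (the GC box) or CCAAT (the CCAAT box) on either strand.
Id4, chr13:48260866-48261115, plus strand: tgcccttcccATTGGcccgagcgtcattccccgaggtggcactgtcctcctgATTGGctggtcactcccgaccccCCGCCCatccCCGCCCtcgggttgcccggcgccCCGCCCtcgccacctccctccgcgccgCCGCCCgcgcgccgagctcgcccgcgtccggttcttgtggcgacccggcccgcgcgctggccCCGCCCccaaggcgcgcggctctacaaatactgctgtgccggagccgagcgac
Lhx1, chr11:84525536-84525784, minus strand: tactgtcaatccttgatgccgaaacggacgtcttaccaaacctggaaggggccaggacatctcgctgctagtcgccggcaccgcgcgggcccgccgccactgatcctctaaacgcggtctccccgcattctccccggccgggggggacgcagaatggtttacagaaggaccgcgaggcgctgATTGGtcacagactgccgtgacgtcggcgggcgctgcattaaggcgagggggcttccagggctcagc
Etv5, chr16:22439720-22439820, minus strand: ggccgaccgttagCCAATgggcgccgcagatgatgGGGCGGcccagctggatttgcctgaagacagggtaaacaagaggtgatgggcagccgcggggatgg
Nanos2, chr7:18987274-18987399, plus strand: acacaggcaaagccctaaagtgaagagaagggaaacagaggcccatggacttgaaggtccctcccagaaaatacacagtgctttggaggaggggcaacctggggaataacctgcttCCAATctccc
Promoter windows were found for 7 of the 10 genes, Pdx1, Nanos2, Eomes, Lhx1, Id4, Etv5 and Gfra1. CCAAT was found on either strand within the 250 bases before the start in all 7 of them, and in 33.8% of all 32851 windows. GGGCGG was found for Id4, with 5 matches, and for 1 of the starts of Etv5, with 3, against 32.7% of all windows. TATAAA had a match for Nanos2 only (12.4% of all windows), CACGTG for Pdx1 only (6.0%) and CCGGAA, the core bound by ETS factors such as ETV5, for Gfra1 only (12.0%). The stretch of Lhx1 also overlaps an exon of the antisense gene Lhx1os, which had 0 to 0.655 CPM in the 21 libraries. No match of these motifs overlapped another in the printed stretches. These are matches of letters and not binding sites.

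Gfra1 (chr19:58235581-58455946, GRCm38.p6) codes for the GDNF co-receptor. Its CPM was 35.2 in the fresh library of 6.5 dpp and 32.6, 31.5 and 11.1 in the CSF libraries. At 10.5 dpp it was 31.8, 27.9 and 33.5, at 22.5 dpp 6.73, 8.71 and 6.83, and at 36.5 dpp 10.5 and 10.0. D4 explants had 36.2, 38.7 and 35.5 and D16 explants 16.01 and 27.6. The fresh libraries of D30 had 11.7, 8.72 and 20.3 and its CSF library 12.6. Gfra1 was thus high in both settings up to 10.5 days of age, at its lowest at 22.5 dpp, and at D30 in a range that held both 36.5 dpp libraries.

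The drop of Gfra1 between 10.5 and 22.5 dpp was 3.43-fold (log2 fold change −1.78 ± 0.32 (SE), edgeR adjusted p = 0.000124). From 22.5 to 36.5 dpp Gfra1 rose 1.98-fold (0.98 ± 0.35, adjusted p = 0.0245), a call that was lost on library size alone (0.47, adjusted p = 0.300) and without any of 4 libraries, 22.5 dpp replicates 1 and 3 and both of 36.5 dpp (adjusted p from 0.0569 to 0.0923). D16 explants held 2.64-fold more Gfra1 than 22.5 dpp testes (1.40 ± 0.34, adjusted p = 0.00869), and the call was lost without D16 replicate 2 (0.99, adjusted p = 0.173). At D30 against 36.5 dpp the log2 difference was −0.28, with a 95% interval from −0.98 to 0.43.

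Ret (chr6:118151748-118197744) codes for the signalling receptor that GFRA1 presents GDNF to. Its CPM was 71.3 in the fresh and 64.6, 61.4 and 21.4 in the CSF libraries of 6.5 dpp, and 56.3, 47.4 and 61.8 at 10.5 dpp. It was 7.79, 16.8 and 8.66 at 22.5 dpp and 1.63 and 2.7 at 36.5 dpp. D4 explants had 48.9, 61.7 and 60.1, D16 explants 24.9 and 37.2, and the D30 libraries 13.9, 9.96 and 23.6, with 14.8 after CSF. Every D30 library lay above both 36.5 dpp libraries.

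Ret fell 4.13-fold from 10.5 to 22.5 dpp (log2 −2.05 ± 0.37, adjusted p = 0.000115) and 3.50-fold from there to 36.5 dpp (−1.81 ± 0.43, adjusted p = 0.00232). D30 held 4.54-fold more than 36.5 dpp (2.18 ± 0.43, adjusted p = 0.000257). D16 held 2.55-fold more than 22.5 dpp (1.35 ± 0.39, adjusted p = 0.0190), which was lost without D16 replicate 2 (adjusted p = 0.203) and without 22.5 dpp replicate 1 (0.0816) or 3 (0.0741).

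The ratio of the 2 receptor genes was highest at 36.5 dpp. Per kilobase of exon, the level of Gfra1 was 0.627 ± 0.0142 (SD, n = 4) times that of Ret at 6.5 dpp, 0.699 ± 0.0292 (n = 3) at 10.5 dpp and 0.894 ± 0.224 (n = 3) at 22.5 dpp. At 36.5 dpp it was 4.59 and 7.95 times that of Ret. It was 0.807 ± 0.0971 (n = 3) at D4, 0.855 ± 0.0858 (n = 2) at D16 and 1.06 ± 0.0177 (n = 4) at D30. The 4 D30 libraries covered 1.04 to 1.08, while their CPM of Ret ran from 9.96 to 23.6. No test was made on this ratio.

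**Figure D1:**
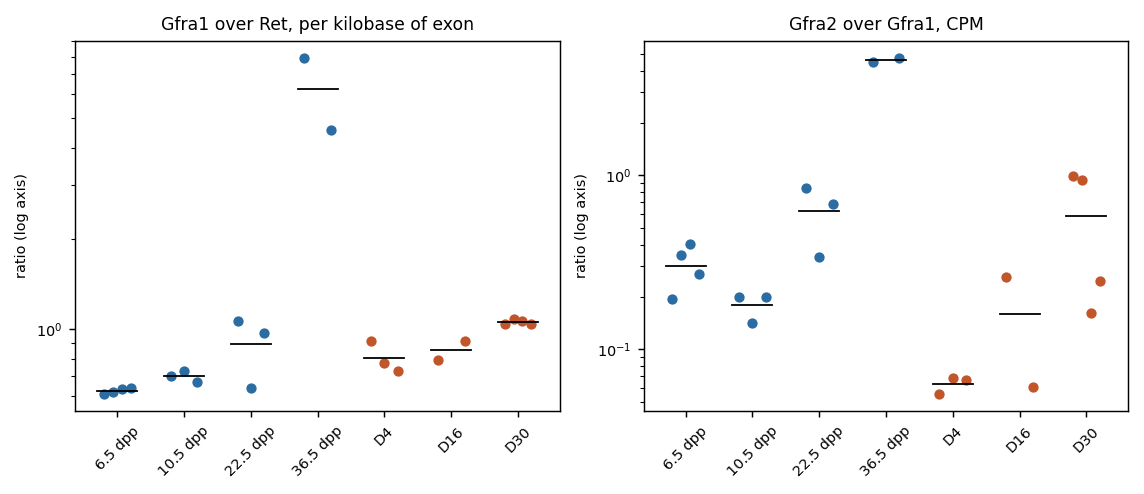
Left, level of Gfra1 over that of Ret per kilobase of exon, and right, CPM of Gfra2 over that of Gfra1, each on a log axis; points are libraries, bars are group means, blue is in vivo and orange is culture. Both 36.5 dpp libraries, at 4.59 and 7.95 on the left and 4.47 and 4.75 on the right, lie above every other library.

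Gfra2, the co-receptor for neurturin, rose from 22.5 to 36.5 dpp (log2 3.90 ± 0.60, adjusted p = 6.7e-05). Its CPM at 36.5 dpp ran from 47.0 to 47.7, against 2.94 to 5.73 at 22.5 dpp and 3.09 to 11.6 at D30. The log2 difference of D30 from 36.5 dpp was −3.47 ± 0.53 (adjusted p = 2.7e-05). Gfra2 and the ligand gene Gdnf were singled out after their values were seen. In the 6.5 dpp testes Gdnf ran from 15.9 to 45.2 CPM and in those of 10.5 dpp from 21.8 to 26.5. It had dropped to between 1.85 and 4.15 by 22.5 dpp and to between 1.16 and 1.22 by 36.5 dpp. Its culture levels were 11.7 to 14.5 CPM on D4, 11.1 to 19.3 on D16, and between 5.75 and 15.0 on D30. Gdnf was higher at D16 than at 22.5 dpp (log2 2.36 ± 0.38, adjusted p = 0.00038) and at D30 than at 36.5 dpp (2.37 ± 0.42, adjusted p = 0.00011), and lower at D4 than at 6.5 dpp (−1.31 ± 0.33, adjusted p = 0.0079).

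Id4 (chr13:48261116-48266028) took the opposite course to most of the others. Its CPM was 15.1 in the fresh and 12.9, 14.5 and 10.8 in the CSF libraries of 6.5 dpp and 10.5, 9.01 and 7.75 at 10.5 dpp. It was 68.5, 76.9 and 78.2 at 22.5 dpp and 38.6 and 29.8 at 36.5 dpp. D4 libraries were at 23.0, 16.9 and 21.3, D16 libraries at 77.8 and 67.1, and D30 libraries at 56.2, 75.2 and 47.0 with 67.6 in the CSF library. The library labelled 6.5 dpp fresh replicate 1 was at 70.8, in the range of D30.

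The rise of Id4 from 10.5 to 22.5 dpp was 10.1-fold (log2 3.33 ± 0.21, adjusted p = 1.24e-09) and that from D4 to D16 was 3.68-fold (1.88 ± 0.22, adjusted p = 3.01e-06). D4 was already 2.39-fold above 10.5 dpp (1.26 ± 0.20, adjusted p = 0.000478). With the library labelled 6.5 dpp fresh replicate 1 kept in the fit these last 2 calls were lost (adjusted p = 0.0645 and 0.332). At the later ages the difference from the testis missed the threshold: −0.20 at D16 (95% interval −0.67 to 0.27) and 0.22 at D30 (−0.23 to 0.67), while on library size alone the D30 value was 0.85 (adjusted p = 0.0021). The fall from 22.5 to 36.5 dpp (−0.62 ± 0.22, adjusted p = 0.0279) was lost without 22.5 dpp replicate 3 (adjusted p = 0.0711) or 36.5 dpp replicate 2 (0.197). The antisense gene A330033J07Rik, which overlaps exons of Id4, stayed between 0 and 1.05 CPM. Gm49291 also overlaps Id4 on the other strand, as do Gm16277 for Gfra1, Gm45058 for Nanos2 and Gm33460 for Eomes, which were not analysed here. Without strand, reads of a gene and its antisense partner cannot be told apart, and the strand setting of the counting is not given in the sources used here.

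Spermatocyte markers rose with Id4 between 10.5 and 22.5 dpp. The summed CPM of 6 of them (Sycp1, Sycp3, Dmc1, Hormad1, Spo11, Meiob) ran from 206 to 275 at 10.5 dpp and from 813 to 1120 at 22.5 dpp, and from 384 to 445 at D4 and 501 to 942 at D16. All 6 rose between 10.5 and 22.5 dpp (33.6% of all genes), and 1 of the 6 rose between D4 and D16 (18.4%). Their part in the level of Id4 was not tested. The genes whose log2 CPM followed Id4 most closely over the 21 libraries were Cers3 (r = 0.98), 1700102P08Rik (r = 0.98) and Ppp3ca (r = 0.97). Cers3 went from 0.834 to 1.39 CPM at 10.5 dpp to 298 to 322 at 22.5 dpp.

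Zbtb16 (chr9:48651797-48836225) was the most abundant of the 10 genes per kilobase of exon at 6.5 dpp, with 16.1 CPM per kilobase on average. Its CPM was 101 in the fresh and 110, 97.8 and 31.6 in the CSF libraries of 6.5 dpp, and 101, 75.2 and 101 at 10.5 dpp. It was 17.5, 38.6 and 14.6 at 22.5 dpp and 4.31 and 6.82 at 36.5 dpp. D4 explants had 58.3, 58.1 and 54.6, D16 explants 29.8 and 51.1, and the D30 libraries 19.9, 15.1 and 36.8, with 19.6 after CSF. It fell 3.27-fold from 10.5 to 22.5 dpp (log2 −1.71 ± 0.40, adjusted p = 0.00123) and was 2.60-fold higher at D30 than at 36.5 dpp (1.38 ± 0.44, adjusted p = 0.0109). Without 36.5 dpp replicate 1 the latter was 1.06 (adjusted p = 0.125). The nearest pattern among the other genes was that of Trim71 (r = 0.99), an RNA-binding ubiquitin ligase of stem and germ cells, and of the 10 genes the closest pair was Zbtb16 and Ret (r = 0.96 over the 21 libraries).

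Nanos2 (chr7:18987524-18988962) had few counts, 0 to 85 per library. Its CPM was 1.59 in the fresh and 1.77, 1.68 and 2.75 in the CSF libraries of 6.5 dpp, and 1.39, 1.00 and 1.45 at 10.5 dpp. At 22.5 dpp it was 0.158, 0.307 and 0.0632, and at 36.5 dpp 0 and 0.0257, from 0 and 1 count. D4 explants had 0.302, 0.767 and 0.855, D16 explants 0.352 and 0.437, and the D30 libraries 0.193, 0.101 and 0.327, with 0.352 after CSF. Every D4 library lay below every 6.5 dpp library. Nanos2 was 2.99-fold lower at D4 than at 6.5 dpp (log2 −1.58 ± 0.43, adjusted p = 0.0146), lost without D4 replicate 1 (adjusted p = 0.0875). Against a floor of 3 counts in the smaller library, 36.5 dpp was at least 21.8-fold lower than 6.5 dpp, and D30 was at least 2.73-fold higher than 36.5 dpp, a call that was lost without 36.5 dpp replicate 1 (0.0791). This floor covers counting error only, as do all limits from counts of reads without molecular identifiers. Both limits compare mean CPM on library size. The TMM factors of 36.5 dpp, 0.661 and 0.645, would raise its floor and lower both.

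Etv5 (chr16:22381313-22439570) was higher in culture at every stage. Its CPM was 39.8 in the fresh and 39.8, 45.3 and 21.3 in the CSF libraries of 6.5 dpp, 37.4, 28.8 and 34.8 at 10.5 dpp, 22.5, 39.6 and 22.4 at 22.5 dpp and 11.5 and 12.9 at 36.5 dpp. D4 explants had 68.6, 55.5 and 52.1, D16 explants 48.0 and 68.2, and the D30 libraries 56.6, 54.5 and 82.4, with 57.6 after CSF. All 9 culture libraries lay above all 12 in vivo libraries of the fit, while the library labelled 6.5 dpp fresh replicate 1 was at 54.6. The log2 difference from testes of the same age was 0.89 ± 0.24 at D4 (adjusted p = 0.0256), 0.91 ± 0.26 at D16 (0.0195) and 1.72 ± 0.27 at D30 (4.0e-05). The D4 call was lost without any of 5 libraries, the 3 of 10.5 dpp and D4 replicates 1 and 2 (adjusted p from 0.0567 to 0.121), and that at D16 without 22.5 dpp replicate 1 (0.0802) or 3 (0.0797) or D16 replicate 2 (0.243). With 6.5 dpp fresh replicate 1 kept, the adjusted p was 0.114 for D4 and 0.0691 for D16.

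Sertoli cell markers were counted beside Etv5. Of 8 (Sox9, Amh, Wt1, Gata4, Clu, Rhox5, Dhh, Cldn11), 1 was higher and 0 lower at D4 than at 10.5 dpp, 7 were higher and 1 lower at D16 than at 22.5 dpp, and 7 were higher and 0 lower at D30 than at 36.5 dpp. Their summed CPM ran from 706 to 928 at 36.5 dpp and from 5615 to 9565 at D30. Of all genes, 4.92% passed upward and 3.18% downward in the D4 comparison, and 14.0% and 11.8% in that of D16. In that of D30 the shares were 32.4% and 35.0%. From 10.5 to 22.5 dpp, where Etv5 stood at 0.02, 7 of the 8 fell and 1 rose (27.9% and 33.6% of all genes). The sum went from between 5461 and 5705 CPM to between 1687 and 2931. Their part in the level of Etv5 was not tested. When the mean log2 CPM of these 8 genes was taken from that of Etv5 in each library, a scale chosen after the values were seen, the D30 libraries stood at −1.14 ± 0.1005 (SD, n = 4) and the 36.5 dpp libraries at −0.76 ± 0.0299 (n = 2). On that scale Etv5 was lower at D30, the D16 difference was −0.017 with overlapping ranges, and at D4 Etv5 was higher than at 10.5 dpp by 0.52 (−1.97 ± 0.22 against −2.49 ± 0.27, n = 3 each), without overlap.

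**Figure D2:**
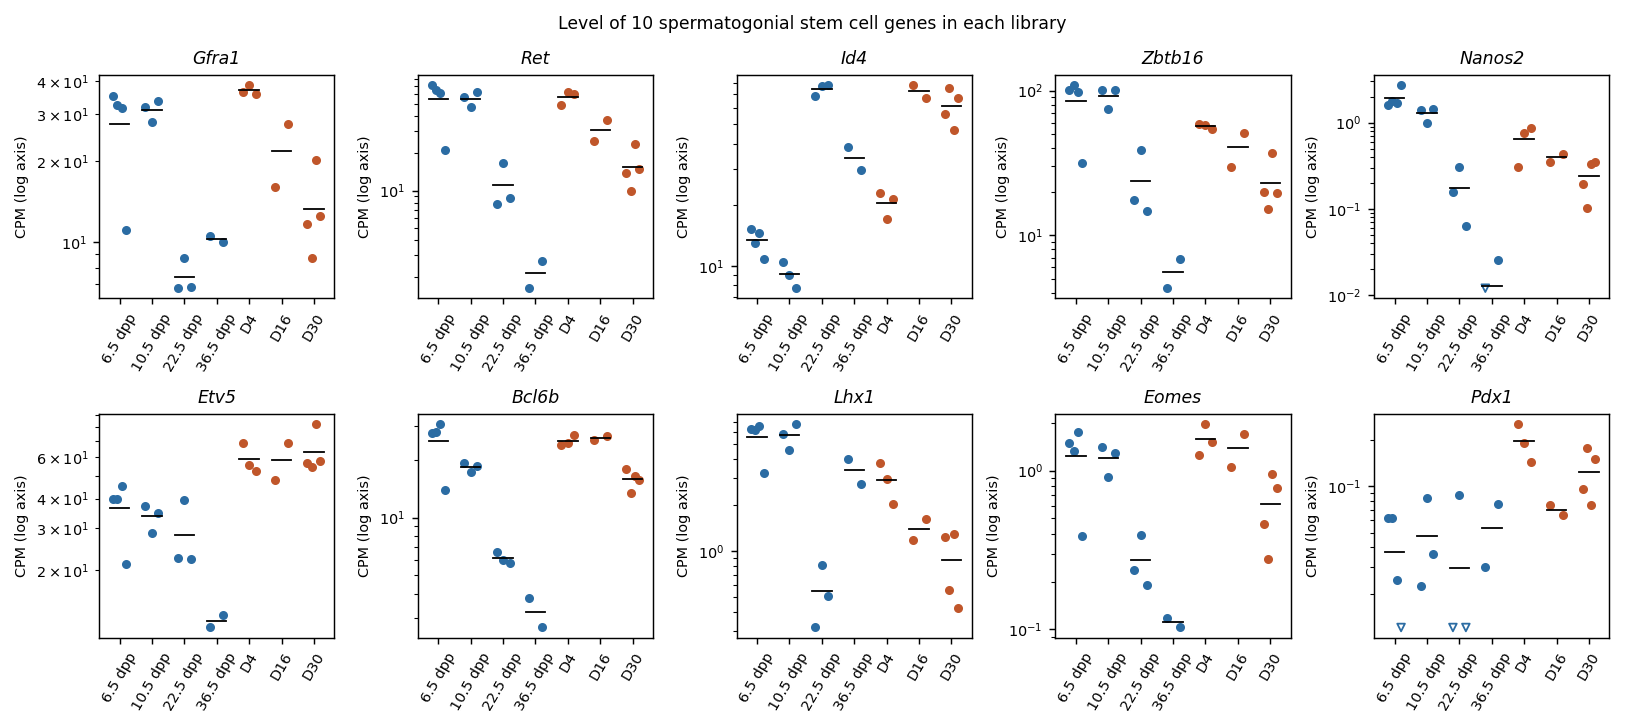
CPM of each of the 10 genes on a log axis, with a range of its own for each gene; points are the 21 libraries, bars are group means, blue is in vivo, orange is culture and open triangles are libraries with 0 counts, drawn at the foot of the panel. Id4 and Etv5 are high late in culture, while Ret and Zbtb16 fall in both settings and reach their lowest levels at 36.5 dpp.

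Bcl6b (chr11:70224127-70229798) was at 27.6 CPM in the fresh and 27.9, 30.7 and 13.9 in the CSF libraries of 6.5 dpp. It was 19.2, 17.2 and 18.5 at 10.5 dpp, 6.63, 6.01 and 5.78 at 22.5 dpp and 3.802 and 2.67 at 36.5 dpp. D4 explants had 24.0, 24.5 and 26.9, D16 explants 25.5 and 26.5, and the D30 libraries 17.9, 13.5 and 16.5, with 15.7 after CSF. At D16 and D30 no culture library overlapped the testes of its age. D16 held 3.78-fold more than 22.5 dpp (log2 1.92 ± 0.23, adjusted p = 2.87e-05) and D30 3.16-fold more than 36.5 dpp (1.66 ± 0.25, adjusted p = 1.93e-05), and no library left out ended either call. At D4 the value of 0.54 ± 0.21 missed the threshold (adjusted p = 0.138) and passed it without 6.5 dpp CSF replicate 3 (0.0270).

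Endothelial cells also express Bcl6b. Of 8 of their markers (Pecam1, Cdh5, Kdr, Tek, Tie1, Emcn, Vwf, Plvap), 6 were higher and 0 lower at D16 than at 22.5 dpp, and 6 were higher and 2 lower at D30 than at 36.5 dpp. Their summed CPM ran from 55.1 to 80.2 at 22.5 dpp and 264 to 345 at D16, and from 31.3 to 46.0 at 36.5 dpp and 178 to 234 at D30. From 10.5 to 22.5 dpp 7 of the 8 fell and 0 rose, and at D4 3 were higher and 1 lower than at 10.5 dpp. Calls over all genes came to 14.0% up and 11.8% down for D16, and 32.4% and 35.0% for D30. For the step from 10.5 to 22.5 dpp they made up 33.6% and 27.9%, and for D4 4.92% and 3.18%. Pecam1 alone went from 2.91 to 3.11 CPM at 36.5 dpp to 34.4 to 49.5 at D30. Their part in the level of Bcl6b was not tested.

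Lhx1 (chr11:84517975-84525534) fell and rose again in vivo. Its CPM was 6.30 in the fresh and 6.22, 6.59 and 3.24 in the CSF libraries of 6.5 dpp, and 5.81, 4.56 and 6.77 at 10.5 dpp. It was 0.317, 0.812 and 0.506 at 22.5 dpp and 4.01 and 2.75 at 36.5 dpp. D4 libraries were at 3.76, 2.97 and 2.04, D16 libraries at 1.18 and 1.62, and D30 libraries at 1.23, 0.557 and 1.28 with 0.427 in the CSF library. Lhx1 fell 8.58-fold from 10.5 to 22.5 dpp (log2 −3.10 ± 0.43, adjusted p = 7.78e-06) and rose 8.84-fold from there to 36.5 dpp (3.14 ± 0.45, adjusted p = 3.43e-05). D30 was 5.98-fold below 36.5 dpp (−2.58 ± 0.40, adjusted p = 3.04e-05), and all 4 of its libraries lay below both of 36.5 dpp. Spermatid markers rose with Lhx1 from 22.5 to 36.5 dpp, and rose while it fell from 10.5 to 22.5 dpp. In both steps 6 of 6 passed, where 23.3% and 33.6% of all genes were called higher. The summed CPM of the 6 (Prm1, Prm2, Tnp1, Tnp2, Acrv1, Spaca1) lay between 3.09 and 7.94 in the 6.5 and 10.5 dpp libraries and was 23.8 to 101 at 22.5 dpp, 16660 to 21474 at 36.5 dpp and 366 to 1676 at D30. Their part in the level of Lhx1 was not tested. At D16 against 22.5 dpp Lhx1 was at 1.21 (adjusted p = 0.0573) and passed without 6.5 dpp CSF replicate 3 (0.0408), 22.5 dpp replicate 2 (0.0318) or the D30 CSF library (0.0402).

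Eomes (chr9:118478186-118486132) was low throughout, with 4 to 104 counts per library. Its CPM was 1.503 in the fresh and 1.33, 1.75 and 0.388 in the CSF libraries of 6.5 dpp, and 1.41, 0.918 and 1.29 at 10.5 dpp. It was 0.238, 0.395 and 0.190 at 22.5 dpp and 0.119 and 0.103 at 36.5 dpp. D4 explants had 1.25, 1.97 and 1.51, D16 explants 1.06 and 1.70, and the D30 libraries 0.459, 0.279 and 0.957, with 0.779 after CSF. All culture libraries of D16 and D30 lay above the testes of their age. D16 held 4.46-fold more than 22.5 dpp (log2 2.16 ± 0.51, adjusted p = 0.00706), lost without D16 replicate 2 (0.103). D30 held 3.51-fold more than 36.5 dpp (1.81 ± 0.62, adjusted p = 0.0161), lost without 36.5 dpp replicate 1 (0.0700) or 2 (0.0953). Natural killer and T cells also express Eomes. Of 10 of their markers (Cd3e, Cd3g, Nkg7, Ncr1, Klrb1c, Gzma, Gzmb, Prf1, Il2rb, Tbx21) 4 passed the filter on low counts. Of these 1 was higher and 3 lower at D16 than at 22.5 dpp (14.0% and 11.8% of all genes). At D30 1 was higher and 1 lower than at 36.5 dpp (32.4% and 35.0%). The 1 higher in both was Klrb1c, a receptor gene of natural killer cells, at 1.29 to 2.29 CPM at D16 and 1.31 to 2.61 at D30, against 0.106 to 0.253 at 22.5 dpp and 0.0297 to 0.103 at 36.5 dpp. Ncr1 had 0 counts in all D16 and D30 libraries. The summed CPM of the 10 ran from 1.55 to 4.15 at 22.5 dpp and 2.01 to 2.82 at D16, and from 1.59 to 1.69 at 36.5 dpp and 1.95 to 3.01 at D30. Their part in the level of Eomes was not tested.

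Pdx1 (chr5:147270097-147275848) had 0 to 11 counts per library and was not tested. All libraries of 6.5 dpp, 10.5 dpp, 36.5 dpp and D16 had at most 3 counts. Its CPM was 0.255, 0.192 and 0.145 at D4 and 0.0966, 0.177 and 0.0756 with 0.151 in the CSF library at D30. On library size, and against the floor of 3 counts in the smallest library, the mean at D4 was at least 2.37-fold that of 10.5 dpp. The mean at D30 was at least 1.40-fold that of 36.5 dpp. These are ratios of means: the D30 library at 0.0756 CPM lay below the floor of 36.5 dpp, 0.0891 CPM. The TMM factors of 36.5 dpp, 0.661 and 0.645, would raise that floor, so the D30 ratio is no bound on the TMM scale.

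Between 6.5 and 10.5 dpp 0 of the 9 tested genes passed the test in edgeR, where 0.675% of all genes tested were called higher and 0.467% lower. 2 of the 9, Id4 and Bcl6b, had an unadjusted p under 0.05 there, and DESeq2 called 1, Id4 (log2 −0.64, adjusted p = 0.0335). Without 6.5 dpp CSF replicate 3 edgeR called Bcl6b lower (−0.67, adjusted p = 0.0403). Between 10.5 and 22.5 dpp 7 of the 9 fell (Gfra1, Ret, Zbtb16, Nanos2, Bcl6b, Lhx1 and Eomes) and Id4 rose, where 27.9% of all genes were called lower and 33.6% higher, and Etv5 stood at 0.02 ± 0.24 (adjusted p = 0.958). The median log2 fold change was −1.78 over the 9 and 0.06 over all genes tested. No library left out changed any of these 8 calls. The CPM ranges of the compared groups did not overlap for 2 of the 9 genes between 6.5 and 10.5 dpp and for 8 between 10.5 and 22.5 dpp, where 18.9% and 78.5% of all genes had ranges apart.

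From 22.5 to 36.5 dpp 5 of the 9 fell (Id4, Zbtb16, Ret, Etv5 and Nanos2) and 2 rose (Gfra1 and Lhx1), against 27.5% of all genes lower and 23.3% higher. Of these 7 calls those of Ret and Lhx1 held without any single library, and 5 did not, Zbtb16 being lost without 22.5 dpp replicate 2 (adjusted p = 0.0631) or 36.5 dpp replicate 1 (0.118), Nanos2 without the same 2 (0.109 and 0.165) and Etv5 without any of 13 (up to 0.216). Over the whole span from 6.5 to 36.5 dpp 6 were lower (Zbtb16, Ret, Etv5, Bcl6b, Nanos2 and Eomes, background 37.9%) and Id4 was higher (background 39.7%). Over the alternative fits the log2 fold change of Id4 ran from 1.09 to 2.33, and its call was not kept in all of them. Gfra1 missed the threshold (−0.66 ± 0.34, adjusted p = 0.0818) and passed it without 6.5 dpp CSF replicate 3 (−0.91, 0.00377), and Etv5 (−0.83 ± 0.26, adjusted p = 0.00827) was lost without 36.5 dpp replicate 1 (0.0787). Ranges were apart for all 9 genes between 22.5 and 36.5 dpp (73.8% of all genes) and for 8 between 6.5 and 36.5 dpp (77.7%).

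Within culture few genes passed the test in a single step. At D4 against 6.5 dpp Id4 (log2 0.64 ± 0.18, adjusted p = 0.0182) and Etv5 (0.73 ± 0.22, adjusted p = 0.0259) were higher and Nanos2 lower, against 10.8% of all genes higher and 10.1% lower. None of these 3 calls was left with the library labelled 6.5 dpp fresh replicate 1 kept, where Id4 turned to −0.37 (adjusted p = 0.651), nor with fresh libraries alone. Id4 was lost without D4 replicate 1 (0.0885) or 3 (0.0588), and Etv5 without 6.5 dpp CSF replicate 3 (0.0566) or D4 replicate 1 (0.1202) or 2 (0.0548). From D4 to D16 1 of the 9, Id4, rose (background 18.4%) and 0 fell (5.48%). From D16 to D30 0 passed the test in edgeR or in DESeq2 (background 1.46% higher, 0.332% lower), while 4, Gfra1, Ret, Bcl6b and Eomes, had an unadjusted p under 0.05. Without 6.5 dpp CSF replicate 3, 3 more single steps passed, Lhx1 at D4 against 6.5 dpp (adjusted p = 0.0496), Gfra1 at D16 against D4 (0.0438) and Bcl6b at D30 against D16 (0.0290), all lower at the later time.

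Over the whole of culture, D30 against 6.5 dpp, all 9 genes passed. Of these 7 were lower (Gfra1, Zbtb16, Ret, Bcl6b, Lhx1, Nanos2 and Eomes, background 26.0%) and Id4 and Etv5 higher (background 35.4%). Over the alternative fits the log2 fold change of Etv5 ran from 0.70 to 1.00, and its call was not kept in all of them. The largest falls were those of Nanos2 (log2 −2.90 ± 0.43, adjusted p = 1.47e-05) and Lhx1 (−2.56 ± 0.36, adjusted p = 7.08e-06). Bcl6b was lost without 6.5 dpp CSF replicate 2 (0.0624) or D30 fresh replicate 2 (0.0507), and Eomes (adjusted p = 0.0474) without any of 15 libraries (up to 0.142). Ranges were apart for 4 of the 9 genes between 6.5 dpp and D4 (34.3% of all genes), 5 between D4 and D16 (56.7%), 4 between D16 and D30 (16.5%) and 4 between 6.5 dpp and D30 (48.3%).

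Testes of the same age were the other reference. At D4 2 of the 9, Id4 and Etv5, were higher than at 10.5 dpp and 0 were lower (background 4.92% and 3.18%). A fit on the 6 libraries of these groups alone, in which 39.7% of all genes were called, gave 7, with Gfra1, Id4, Etv5 and Bcl6b higher and Zbtb16, Lhx1 and Nanos2 lower, and a fit that kept 6.5 dpp fresh replicate 1 called 0 (2.32% of all genes). At D16 5 of the 9, Gfra1, Ret, Etv5, Bcl6b and Eomes, were higher than at 22.5 dpp and 0 were lower (14.0% and 11.8%). Without D16 replicate 2 only Bcl6b was left of these 5, and a fit on the 5 libraries of these groups alone called 3, Gfra1, Bcl6b and Eomes (9.47% of all genes). At D30 6 of the 9, Zbtb16, Ret, Etv5, Bcl6b, Nanos2 and Eomes, were higher than at 36.5 dpp and Lhx1 was lower (32.4% and 35.0%). In either direction these were 2, 5 and 7 of the 9 at the 3 stages, beside 8.10%, 25.8% and 67.4% of all genes, so that the share of all genes rose along with theirs. The median log2 difference over the 9 was 0.33, 1.21 and 1.66 at the 3 stages, beside −0.01, −0.08 and −0.03 over all genes tested. With Nanos2 at its bound, which is on library size and not on the TMM scale of the others, the D30 median was 1.45. The CPM ranges of the compared groups did not overlap for 7, 7 and 8 of the 9 genes, where 48.5%, 50.7% and 72.8% of all genes had ranges apart. With library size alone as the scale, which moved the median of all genes at D30 to 0.60, 8 of the 9 passed there, 7 higher and 1 lower, beside 45.9% and 23.8% of all genes.

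**Figure D3:**
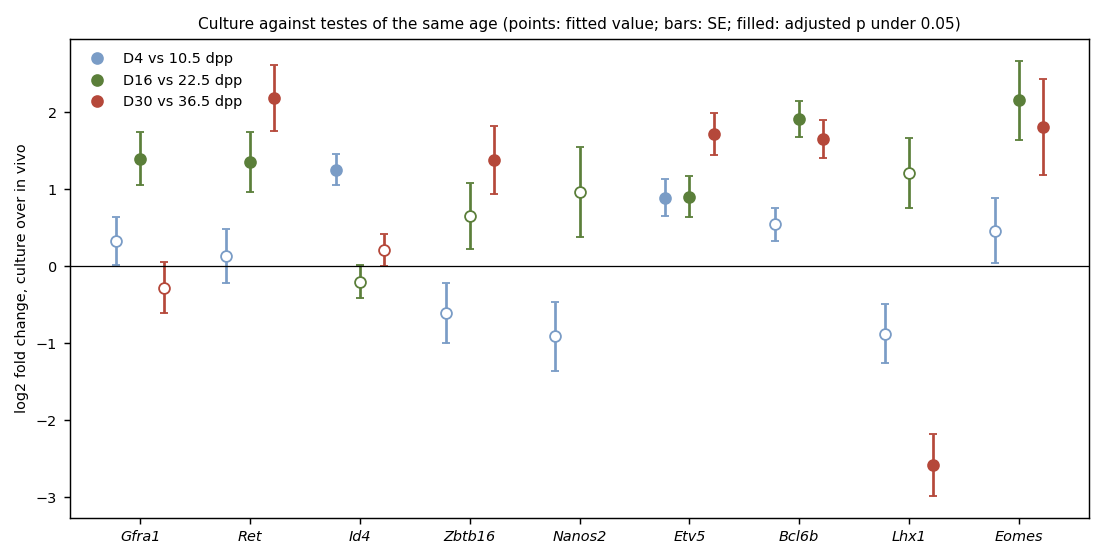
Log2 fold change of culture over testes of the same age for the 9 tested genes at 3 stages, with SE; filled points have an adjusted p under 0.05, and Nanos2 at D30 is left out because 36.5 dpp was at the floor of 3 counts. Lhx1 turns from 1.21 at D16 to −2.58 at D30, while Ret and Zbtb16 are highest at D30.

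The stricter thresholds of the study, an absolute log2 fold change of 2 with an adjusted p of 0.001, left fewer genes. From 10.5 to 22.5 dpp they called 4 of the 9, Id4, Ret, Lhx1 and Nanos2, beside 18.4% of all genes, and from 22.5 to 36.5 dpp 1, Lhx1, beside 9.9%. Over the span from 6.5 to 36.5 dpp they called 6, Id4, Zbtb16, Ret, Bcl6b, Nanos2 and Eomes (40.8%), and for D30 against 6.5 dpp 3, Id4, Lhx1 and Nanos2 (19.6%). At D30 against 36.5 dpp Ret and Lhx1 passed (21.3%). In the edgeR fit 0 of the 9 passed them for 10.5 against 6.5 dpp (0.0208%), D4 against 6.5 dpp (2.41%), D16 against D4 (7.86%), D30 against D16 (0.00519%), D4 against 10.5 dpp (1.07%) and D16 against 22.5 dpp (1.42%). Of the differences of the culture effect they left that of Lhx1 between D16 and D30 (1.67%), and 0 between D4 and D16 (0.431%) or D4 and D30 (9.52%).

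Whether the culture effect itself changed between stages was tested as a difference of contrasts. Between D4 and D16 it was higher for Bcl6b (log2 1.37 ± 0.31, adjusted p = 0.0128) and Lhx1 (2.09 ± 0.59, adjusted p = 0.0347) and lower for Id4 (−1.45 ± 0.30, adjusted p = 0.00676), where 5.26% and 4.36% of all genes were called. Without D16 replicate 2 these 3 had adjusted p of 0.0539, 0.159 and 0.0588, and Lhx1 was also lost without 6 other libraries. Gfra1 (0.0390) and Eomes (0.0428) passed without 6.5 dpp CSF replicate 3, and Nanos2 (0.0486) without 22.5 dpp replicate 2. Between D4 and D30 it was higher for Zbtb16, Ret, Bcl6b and Nanos2 and lower for Id4 and Lhx1 (background 25.8% and 20.7%). Nanos2 stood against a group at the floor, so that its size is no bound. These differences are signed: the culture effect of Lhx1 went from −0.88 to −2.58 and that of Zbtb16 from −0.60 to 1.38. The differences were 1.99 ± 0.59 for Zbtb16 (adjusted p = 0.0105) and 2.05 ± 0.54 for Ret (adjusted p = 0.0051). Zbtb16 (0.0689) and Lhx1 (0.0839) were lost without 36.5 dpp replicate 1, and Bcl6b (0.0677) without 36.5 dpp replicate 2, while Etv5 passed without 6.5 dpp CSF replicate 3 (0.0268) or 22.5 dpp replicate 2 (0.0467). Between D16 and D30 it was lower for Gfra1 (−1.67 ± 0.47, adjusted p = 0.0198) and Lhx1 (−3.79 ± 0.61, adjusted p = 0.000519; background 8.63%), and higher for 0 of the 9 (11.5%). The call of Gfra1 was lost without 36.5 dpp replicate 1 (0.0613) or D16 replicate 2 (0.0819).

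The size of the late differences depended on what the levels were set against. On the scale of the 8 Sertoli cell markers, given for genes with a mean of at least 1 CPM in both groups, D30 and 36.5 dpp had Ret at −3.19 ± 0.29 (SD, n = 4) and −3.24 ± 0.34 (n = 2), with overlapping ranges. Zbtb16 was at −2.65 ± 0.33 and −1.91 ± 0.31, Bcl6b at −3.10 ± 0.25 and −2.66 ± 0.50, and Gfra1 at −3.41 ± 0.28 and −1.004 ± 0.20. The signs of Zbtb16, Etv5 and Bcl6b at D30 were thus the reverse of those in the fit, and the ranges of Bcl6b overlapped. At D16 Gfra1, Ret and Bcl6b stayed above 22.5 dpp on this scale, by 0.41, 0.44 and 0.97, without overlap between the groups. Id4 differed from the testis by −1.13 at D16 and −1.88 at D30, also without overlap. At D4 Zbtb16 (−0.96) and Lhx1 (−1.24) were below 10.5 dpp and Id4 (0.88) and Etv5 (0.52) above it, again without overlap. These values are a description without a test.

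**Figure D4:**
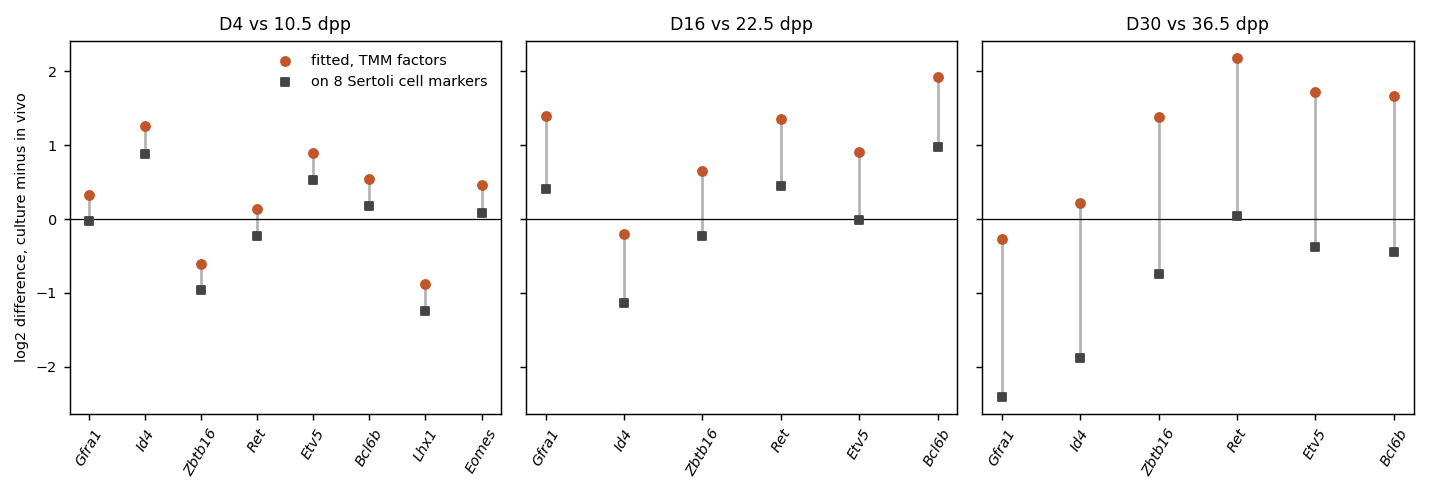
Log2 difference of culture from testes of the same age for genes with at least 1 CPM in both groups, as fitted with TMM factors (circles) and after taking off the mean log2 CPM of 8 Sertoli cell markers (squares). The squares lie below the circles at all 3 stages, and at D30 Ret goes from 2.18 to 0.05.

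Genes of the niche were counted in the same way. The list of 27 held genes of GDNF and FGF signalling and others of the niche, such as Csf1, Csf1r and Cxcl12. Of these 27, 1 was higher and 2 lower at D4 than at 10.5 dpp, beside 4.92% and 3.18% of all genes. Against 22.5 dpp, D16 had 9 higher and 3 lower (14.0% and 11.8% of all genes). Against 36.5 dpp, D30 had 19 higher and 5 lower (32.4% and 35.0%). The smallest p at D30 belonged to Dusp6, a phosphatase induced by ERK signalling (log2 2.7 ± 0.22, adjusted p = 5.3e-08), Fyn, a SRC family kinase (2.02 ± 0.22, adjusted p = 9.1e-07), and Fgf2 (2.59 ± 0.30, adjusted p = 1.4e-06). At D4 the genes that passed were from outside GDNF and FGF signalling. They were Csf1r (−2.63 ± 0.27, adjusted p = 5.4e-06) and Cxcl12 (−1.49 ± 0.29, adjusted p = 0.0027), lower in culture, and Csf1 (0.93 ± 0.24, adjusted p = 0.020), higher. Csf1r marks macrophages, 5 of whose 6 markers were lower at D4 and 0 higher (3.18% and 4.92% of all genes).

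Of 29 other genes of undifferentiated spermatogonia, 2 were higher and 1 lower at D4 than at 10.5 dpp, 11 higher and 2 lower at D16 than at 22.5 dpp, and 17 higher and 3 lower at D30 than at 36.5 dpp. The shares of all genes called up and down were 4.92% and 3.18% in the D4 comparison, and 14.0% and 11.8% in the D16 one. For D30 they came to 32.4% and 35.0%. The 3 smallest p at D30 belonged to Mcam, Sdc4 and Ccnd2, with log2 differences of 2.77 ± 0.23, 3.02 ± 0.28 and 2.94 ± 0.37. Over culture itself, D30 against 6.5 dpp, 21 of the 29 fell and 3 rose, beside 26.0% and 35.4% of all genes. Pou5f1 had the smallest p (−3.14 ± 0.21, adjusted p = 1.3e-09).

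Of 11 genes of progenitor and differentiating spermatogonia, 5 at D4 were lower than at 10.5 dpp and 0 higher, beside 3.18% and 4.92% of all genes. Among the 5 were Ccnd1 (log2 −1.36 ± 0.20, adjusted p = 0.00026) and Neurog3, a marker of progenitors (−1.93 ± 0.37, adjusted p = 0.0025). Neurog3 ran from 3.28 to 4.09 CPM at 10.5 dpp and 0.647 to 1.13 at D4. At D30 7 of the 11 were higher than at 36.5 dpp (32.4% of all genes). Lower was 1, Dmrtb1 (−2.17 ± 0.34, adjusted p = 3.3e-05), beside 35.0% of all genes.

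**Figure D5:**
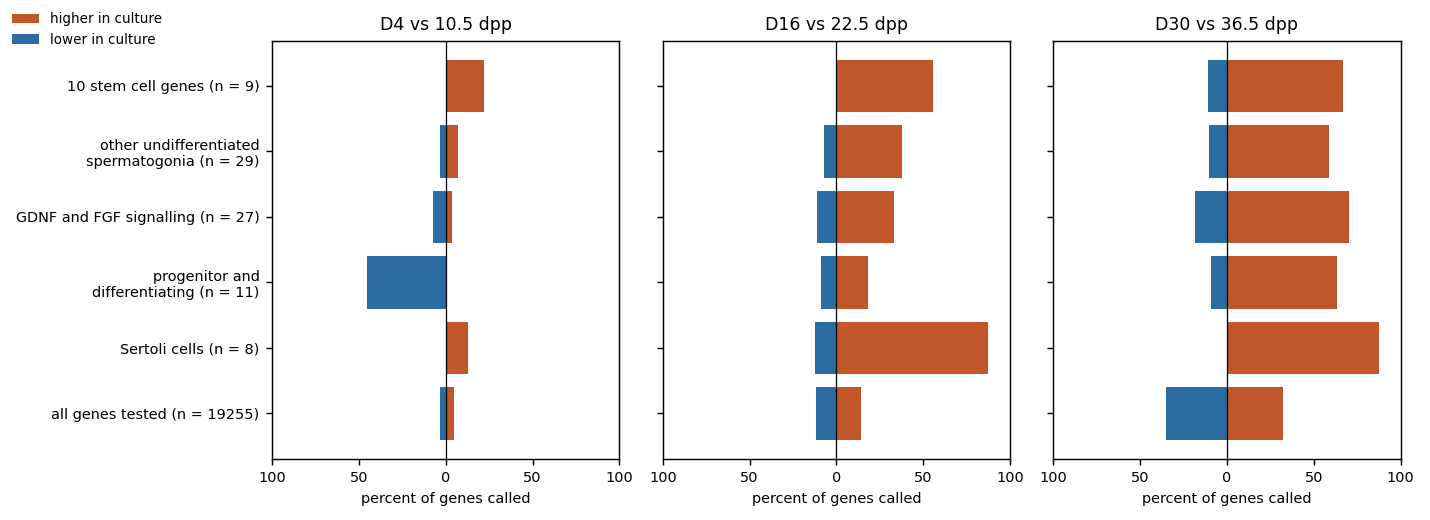
Percent of the tested genes of each list that were higher (orange, to the right) or lower (blue, to the left) in culture than in testes of the same age, at an adjusted p under 0.05, with all genes tested at the foot. At D30 the 9 stem cell genes and the other undifferentiated, the signalling, and the progenitor and differentiating genes have more calls to the right than all genes. The Sertoli cell markers do too.

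The spread within groups ran along the same line in several genes. At D16 replicate 2 was higher than replicate 1 for 8 of the 10 genes, all but Id4 and Pdx1, and its spermatid markers summed to 7.56 CPM against 56.0. At D30 fresh replicate 3 was the highest library for Gfra1, Zbtb16, Ret, Etv5, Lhx1 and Eomes and the lowest for Id4 and Pdx1, with spermatid markers at 366 CPM against 495 to 1676 in the others. At 22.5 dpp replicate 2 was the highest for Gfra1, Pdx1, Zbtb16, Ret, Etv5, Lhx1, Nanos2 and Eomes, with 23.8 CPM against 85.1 and 101. The part of the stage of the tissue in these differences was not tested.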

How the data were processed

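Poly(A) RNA of whole mouse testes and cultured explants was sequenced as single reads. The authors aligned reads with STAR 2.7.3a and counted them per gene with HTSeq 0.12.4, and the deposited values are raw counts for 27466 NCBI gene identifiers in 23 columns, of which 27373 were matched to a symbol. The strand setting of the counting is not given in the sources used here.

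One fit of 21 libraries in 7 groups was made with edgeR 4.0.16 in R 4.3.3: TMM factors, filterByExpr, the quasi-likelihood test and Benjamini-Hochberg adjustment over the 19255 genes kept, with calls at an adjusted p under 0.05. Fold changes and their SE come from this fit, and CPM is on the library total (28351546 to 69029328 counts). Intervals are 95% with 14 residual degrees of freedom. A group with at most 3 counts in each library was taken as at the floor. On simulated counts for D30 against 36.5 dpp, 23 of 100 genes changed 2-fold and 79 of 100 changed 4-fold were called, with 3 false calls among 18922. Only these genes were changed there, all upward, while 67.4% of all genes were called in the data. They were also drawn above a minimum mean CPM that Lhx1, Nanos2 and Eomes did not reach. The rates therefore do not give the power of this comparison or that for genes of low level. Alternatives were DESeq2 1.42.0, RLE factors, library size alone, other filters, other sets of libraries, a replicate block and the study's thresholds (log2 fold change of 2, adjusted p of 0.001). The scale of Sertoli cell markers, with 0.1 CPM added, was chosen after seeing the data. The 10 genes and all gene lists were chosen with earlier results of these data known. Named beside the 10 were list genes with the smallest p in a comparison and, by Pearson correlation of log2 CPM over the 21 libraries, the genes closest to a member.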

Additional observations from a re-analysis of the deposited data

Results flagged for a closer look

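At 6.5 dpp, CSF replicate 3 stood far from the other 3 libraries of its group for 4 genes, by Dixon's test at the 95% level over 19 groups of 4, where chance flags about 1 in 20. Gfra1 was at 11.1 CPM there, Zbtb16 at 31.6, Lhx1 at 3.24 and Nanos2, the highest of its group, at 2.75. At D30, fresh replicate 3 stood apart for Etv5, with 82.4 CPM.

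The effect of culture against testes of the same age differed between stages for 11 gene results, each by the edgeR test of the difference itself. From D4 to D16 the difference (log2) was −1.45 for Id4, 1.37 for Bcl6b and 2.09 for Lhx1. From D4 to D30 it was −1.04 for Id4, 1.99 for Zbtb16, 2.05 for Ret, 1.11 for Bcl6b, −1.71 for Lhx1 and 4.24 for Nanos2, the last against a group at the floor of 3 counts and so no bound. From D16 to D30 it was −1.67 for Gfra1 and −3.79 for Lhx1.

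The library labelled 6.5 dpp fresh replicate 1, which entered no comparison, lay above every other 6.5 dpp library for Id4 (70.8 CPM), Pdx1 (0.239 CPM) and Etv5 (54.6 CPM).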

How the results depend on the processing

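Of 1132 results of single genes under the alternatives, 1064 kept their side of the threshold and, where called, their direction. Another 44 fell short of it, 23 newly passed and 1 reversed. The reversed value was Id4 at D4 against 6.5 dpp (−0.37 with 6.5 dpp fresh replicate 1 kept). On the scale of Sertoli cell markers, chosen after seeing the data and not tested, 4 called values changed sign: Etv5 at D16 (−0.017) and Zbtb16 (−0.74), Etv5 (−0.38) and Bcl6b (−0.44) at D30. With 1 library left out, 2554 of 2646 held in the same sense, 78 fell short, 14 newly passed and 0 reversed. Over both sets, 64 values without a call in either fit changed sign and were counted as held.

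Some counts of called genes among the 9 moved by over 1.5 times; the cause was not tested. With 6.5 dpp fresh replicate 1 kept, 4 were called for 36.5 against 22.5 dpp, beside 39.1% of all genes. There were 0 each for D4 against 6.5 dpp (5.77% of all genes), D16 against D4 (4.41%), D4 against 10.5 dpp (2.32%) and the D16 minus D4 difference (1.05%). Fresh libraries alone gave 0 for D4 against 6.5 dpp (4.99% of all genes). Fits on only the groups compared gave 4 for 36.5 against 22.5 dpp (42.4% of all genes) and 2 for D16 against D4 (27.0%). They gave 7 for D4 against 10.5 dpp (39.7%), 3 for D16 against 22.5 dpp (9.47%) and 6 for the D16 minus D4 difference (26.8%). DESeq2 gave 1 for 10.5 against 6.5 dpp (3.36% of all genes) and 4 for 36.5 against 22.5 dpp (48.7%). Library size alone gave 1 for D4 against 10.5 dpp (7.31%). The study's thresholds gave 4 for 22.5 against 10.5 dpp (18.4% of all genes), 1 for 36.5 against 22.5 dpp (9.90%) and 3 for D30 against 6.5 dpp (19.6%). They gave 2 for D30 against 36.5 dpp (21.3%) and 1 for the D30 minus D16 difference (1.67%). There were 0 for D4 against 6.5 dpp (2.41%), D16 against D4 (7.86%), D4 against 10.5 dpp (1.07%) and D16 against 22.5 dpp (1.42%). The D16 minus D4 (0.431%) and D30 minus D4 (9.52%) differences also had 0.

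With 1 library left out, counts ran from 0 to 1 for 10.5 against 6.5 dpp, 3 to 7 for 36.5 against 22.5 dpp, 6 to 8 for 36.5 against 6.5 dpp, 0 to 4 for D4 against 6.5 dpp, 1 to 2 for D16 against D4, 0 to 1 for D30 against D16, 7 to 9 for D30 against 6.5 dpp, 1 to 3 for D4 against 10.5 dpp, 1 to 6 for D16 against 22.5 dpp and 4 to 7 for D30 against 36.5 dpp, and for the differences 0 to 5 (D16 minus D4), 4 to 7 (D30 minus D4) and 1 to 2 (D30 minus D16). The count of 8 for 22.5 against 10.5 dpp held throughout.

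Over all genes, the fit called 220 for 10.5 against 6.5 dpp, 4028 for D4 against 6.5 dpp, 4598 for D16 against D4, 345 for D30 against D16, 11830 for D30 against 6.5 dpp, 1559 for D4 against 10.5 dpp, 4967 for D16 against 22.5 dpp, and 1851 and 3867 for the D16 minus D4 and D30 minus D16 differences. With 6.5 dpp fresh replicate 1 kept these were 2, 1113, 851, 83, 7163, 447, 1924, 203 and 2142. Fresh libraries alone gave 6 and 977 for the first 2. Fits on only the groups compared gave 0 for 10.5 against 6.5 dpp and for D30 against D16, 6465 for D4 against 10.5 dpp, 1687 for D16 against 22.5 dpp, and 4923 and 1510 for the 2 differences. DESeq2 gave 647 for 10.5 against 6.5 dpp, 719 for D30 against D16 and 2905 for the D16 minus D4 difference, and library size alone 6594 for the D30 minus D16 difference. The study's thresholds left from 1 (D30 against D16) to 7857 (36.5 against 6.5 dpp).

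Of all calls, the share that was higher with TMM and with library size alone was 48.0% and 65.8% for D30 against 36.5 dpp, 54.3% and 68.0% for D16 against 22.5 dpp, 60.7% and 50.1% for D4 against 10.5 dpp, 45.9% and 27.9% for 36.5 against 22.5 dpp, 51.2% and 38.7% for 36.5 against 6.5 dpp and 54.6% and 43.8% for 22.5 against 10.5 dpp. RLE factors gave 43.9% for D16 against 22.5 dpp and 56.0% for 36.5 against 22.5 dpp. For D30 against 36.5 dpp the median of all genes was −0.03 with TMM, 0.60 with library size alone and −0.29 with RLE factors.

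Deviations from the group mean were correlated between libraries of different groups. Those with the same replicate number had a median r of 0.0086 over 64 pairs, 16 of them over 0.1. Those with different numbers had −0.0069 over 123 pairs, 27 of them over 0.1. In a group of 2 the deviations mirror each other, so this check cannot settle whether the numbers pair the samples. With replicate number as a block, 8 of the 9 genes were called for D30 against 6.5 dpp, where Eomes had an adjusted p of 0.112 in edgeR, and 2 for the D16 minus D4 difference, where Lhx1 had 0.051. The other counts under the block were those of the fit without it. Depth limits Pdx1, Nanos2 and Eomes most, whose counts per library began at 0, 0 and 4.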
